A study of Mus musculus with 6 samples.

Results

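Fatty acids reach a liver cell either as free acids taken from the blood or inside lipoproteins, and small cytosolic carriers hold them once they are inside. The 9 genes described here cover these steps: the membrane receptor gene Cd36, the transport protein gene Slc27a4 (FATP4), lipoprotein lipase (Lpl), the very-low-density lipoprotein receptor (Vldlr) and the fatty acid binding protein genes Fabp1, Fabp2, Fabp4, Fabp5 and Fabp7. Their rows were picked by gene symbol, and each symbol was found once among the 55487 genes of the deposited tables. All 9 passed the filter on low counts.

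Liver RNA from male mice of the C57/Bl6J strain on HFD, a high-fat diet, was sequenced in 3 mutant and 3 control libraries. The genotype label of the mutants is RXRa f/f Alb cre+/-, and that of the controls is Alb cre +/-, so in both groups Cre recombinase is driven by the albumin promoter of hepatocytes. The other labels differ: S65A is the Rxra change in the design text, the titles have WT for controls and Cre for mutants alone, and no age is given. Gene-level values cannot show which form of the receptor the transcripts encode. The labels do not state that libraries are separate animals, so p-values measure the spread between libraries, which may be technical.

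RXRα, the product of Rxra, pairs with other nuclear receptors to bind DNA. Its partner PPARα switches on genes of fatty acid use in hepatocytes, Fabp1 among them, while PPARγ, LXR and PXR are known activators of Cd36 in liver. CD36 imports long-chain fatty acids and rises in fatty liver. LPL splits triglyceride in circulating lipoproteins and is made mainly outside the adult liver parenchyma. VLDLR binds triglyceride-rich lipoproteins and is normally scarce in liver. FABP1 is the main cytosolic fatty acid carrier of hepatocytes and FABP2 that of enterocytes. FABP4 belongs to adipocytes, macrophages and capillary endothelium, FABP5 to skin and macrophages, and FABP7 to brain and, in mouse liver, Kupffer cells.

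Library totals ranged from 35847386 to 43162557 estimated counts in the mutants and from 38766643 to 40155170 in the controls. Major urinary protein genes took 12.8 to 16.9% of the counts in the mutants and 1.85 to 3.09% in the controls. The level of the typical gene depended on the scaling. CPM values below are counts relative to library size after TMM scaling, which sets the typical gene equal between the groups, and TPM are the authors' deposited length-scaled values, which are not scaled in this way. Among 14286 tested genes, 91.6% had a lower mean TPM in the mutants, against 49.96% that had a lower mean CPM. The targeted gene Rxra was at 700, 522 and 609 CPM in mutant replicates 1 to 3 and at 501, 471 and 414 CPM in control replicates 1 to 3. Its log2 fold change of 0.40 ± 0.13 (SE) had an adjusted p of 0.0724 in edgeR's quasi-likelihood test, above the threshold of 0.05 used throughout. It was below 0.05 in DESeq2 (0.0255), in edgeR without a count filter (0.0356) and without mutant replicate 2 (0.0388). The log2 fold change was 0.0073 at library totals (adjusted p = 0.971) and turned to -0.20 in limma on log2(TPM + 1).

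The promoter letters of the most abundant carrier gene and of the gene with the largest fall are shown first, because RXRα dimers with PPARs bind direct repeats of AGGTCA separated by 1 base. The windows come from RefSeq on GRCm38.p6 and run from 250 bases before to 50 bases after an annotated start site. Of the 9 genes 6 have such a window in the table, Vldlr with a pair of them. Fabp4, Fabp5 and Lpl were not matched. Both windows are printed 5′ to 3′ on the gene's strand, with the closest match to AGGTCA, 1 base of any kind (N) and AGGTCA again in capitals, searched on both strands. The Fabp1 window is chr6:71199629-71199928 on the plus strand and the Cd36 window is chr5:17835847-17836146 on the minus strand.
Fabp1: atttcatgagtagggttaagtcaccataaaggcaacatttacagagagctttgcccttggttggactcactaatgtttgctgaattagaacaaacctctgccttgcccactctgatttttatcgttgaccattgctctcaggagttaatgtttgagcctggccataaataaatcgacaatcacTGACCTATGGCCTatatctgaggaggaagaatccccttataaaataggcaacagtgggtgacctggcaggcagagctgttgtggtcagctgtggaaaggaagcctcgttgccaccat
Cd36: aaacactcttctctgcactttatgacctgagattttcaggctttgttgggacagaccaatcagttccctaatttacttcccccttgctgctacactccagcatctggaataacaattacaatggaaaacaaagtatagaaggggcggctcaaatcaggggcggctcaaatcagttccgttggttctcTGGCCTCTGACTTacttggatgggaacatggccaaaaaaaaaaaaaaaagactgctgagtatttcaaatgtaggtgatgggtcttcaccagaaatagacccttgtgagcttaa
The Fabp1 match lies on the opposite strand, begins at base -67 from the start site and has 1 mismatch, a closeness reached in 0.554% of 32851 promoter windows of the same length. The Cd36 match, also on the opposite strand, begins at base -63 and has 2 mismatches, and 3.86% of windows come at least that close. The windows of Slc27a4, Fabp2, Fabp7 and Vldlr hold no match within 2 mismatches. The single repeat unit AGGTCA, which overlaps the longer motif, is found 2 times in the Fabp1 window, at bases -67 and -9, and once each in the windows of Cd36 and Fabp7. It is present in 16.3% of all windows. The Cd36 window covers 1 start site inside a gene with 6 annotated transcripts, so other start sites of Cd36 are not shown. The RefSeq start site of the Fabp1 window differs from the GENCODE gene start at base 71199827. The Fabp1 offsets hold for the RefSeq start site alone. These matches describe letters and are no evidence of binding.

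In the control livers the 9 genes spanned more than 3 orders of magnitude in TPM. Fabp1 led with 13201 TPM, which placed it 6th among all genes of the table, and it was followed by Fabp2 with 237 TPM and Cd36 with 196 TPM. Fabp4, Slc27a4, Fabp5 and Lpl then lay close together, with means of 20.99, 17.5, 15.8 and 14.2 TPM and libraries that overlapped between neighbours in this order. Fabp7 had 6.93 TPM and Vldlr 3.75 TPM, each below the neighbour before it in every control library. In the mutant livers Fabp1 and Fabp2 again led, with 9452 and 130 TPM. Cd36 was still in the third place but at 14.6 TPM, where its libraries overlapped with those of Slc27a4 at 10.9 TPM. From Cd36 down to Fabp7 each mutant mean overlapped with the next one in its libraries, and Vldlr was last at 0.531 TPM, below Fabp7 in every mutant library.

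**Figure D1:**
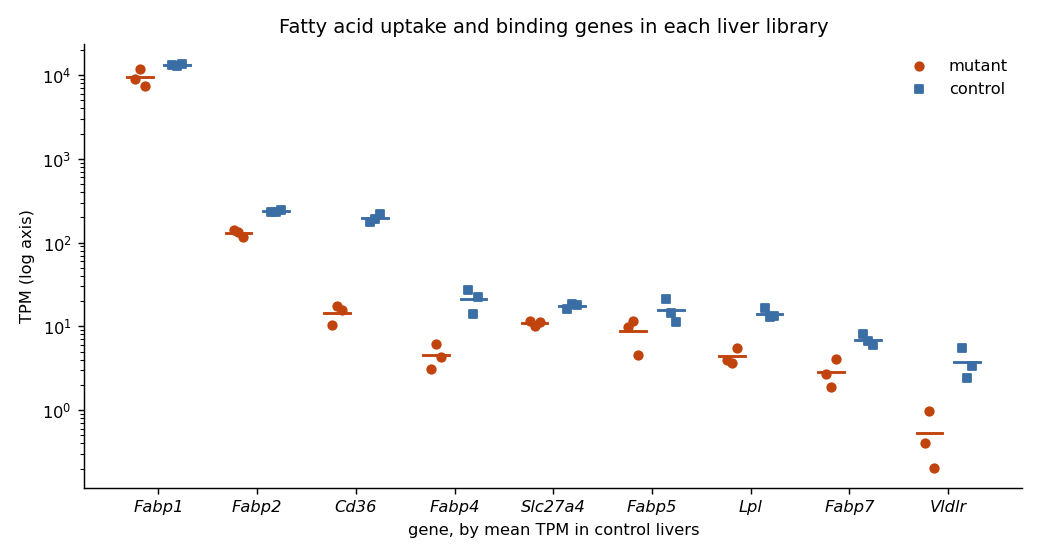
Deposited TPM of the 9 genes in each liver library on a log axis, with mutant libraries as circles left of control libraries as squares and short lines for group means. Cd36 lay between 10.4 and 17.7 TPM in the mutants and between 176 and 222 TPM in the controls, while Fabp1 was the highest gene of the 9 in all 6 libraries.

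Of the 9 genes, 4 were lower in the mutants by edgeR's quasi-likelihood test at an adjusted p under 0.05, namely Cd36, Vldlr, Fabp4 and Lpl, and none was higher. DESeq2 also called 0 of them higher, and 0 were higher at an unadjusted p under 0.05. The background share of all tested genes called lower was 6.82%. The members were chosen with earlier results of these data known, so setting the count beside this share is no test of the list. All 4 called genes fell more than 2-fold, a size that 4.03% of tested genes reached with a call. The other 5, Slc27a4, Fabp1, Fabp2, Fabp5 and Fabp7, did not pass. The number called was 2 without mutant replicate 1, mutant replicate 3, control replicate 1 or control replicate 3, it was 3 without control replicate 2, and Cd36 and Lpl were called each time. The median log2 fold change of the 9 was -0.68, beside 0.00 (0.000249) over all tested genes. CPM of the groups did not overlap in 5 genes, the 4 called ones and Fabp2, with mutants lower each time, against 17.5% of tested genes. In deposited TPM the mutants lay wholly below the controls for 8 genes, all but Fabp5, but 64.5% of tested genes do so on that scale.

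Cd36 encodes the main inducible fatty acid importer of the 9 and had the largest change. It was at 24.3, 45.1 and 37.8 CPM in mutant replicates 1 to 3 and at 285, 306 and 352 CPM in control replicates 1 to 3. Every mutant library was far below every control library, and the mutant mean was 11.4% of the control mean. The log2 fold change was -3.14 ± 0.22 (SE), or 8.81-fold lower in the mutants (adjusted p = 2.5e-04). Cd36 ranked 17th of the 14286 tested genes by p and 65th from the most lowered by log2 fold change. Its call held in all 17 alternative procedures, with log2 fold changes from -3.77 to -2.93. The gene, ENSMUSG00000002944.15, spans bases 17781690 to 17888801 of chromosome 5 in mm10.

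Slc27a4 encodes FATP4, a transport protein with acyl-CoA synthetase activity, best known from the intestine. Its level was 43.4, 41.1 and 43.1 CPM in mutant replicates 1 to 3 and 41.5, 47.7 and 46.3 CPM in control replicates 1 to 3. The groups overlapped, and the log2 fold change of -0.09 ± 0.10 (SE) did not pass (adjusted p = 0.624). At library totals, where the median gene moved by -0.40, Slc27a4 was at -0.48 and was called (adjusted p = 0.00967), and in limma on log2(TPM + 1), where the median gene moved by -0.48, it was at -0.63 (adjusted p = 0.00287). The TPM ratio of Cd36 to Slc27a4 within a library needs no scaling between libraries. It was 0.900, 1.77 and 1.41 in the mutants and 11.04, 10.3 and 12.2 in the controls, 8.25-fold lower in the mutants by means. A two-sided exact permutation test over libraries gave p = 0.1, the smallest that 3 against 3 allows. Slc27a4 (ENSMUSG00000059316.2) lies on chromosome 2 from base 29802634 to 29817522.

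Lpl encodes the lipase that frees fatty acids from lipoprotein triglyceride. It was at 14.6, 14.7 and 21.2 CPM in mutant replicates 1 to 3 and at 42.2, 33.2 and 33.4 CPM in control replicates 1 to 3. All mutant libraries were below all control libraries, with a log2 fold change of -1.11 ± 0.18 (SE, adjusted p = 0.00646). The call was kept in all 17 alternatives, between -1.69 and -0.98. Lipc, the hepatic lipase of the same protein family, moved the other way and rose to 123 ± 11.9 CPM in mutants, against 77.9 ± 3.19 CPM in controls (SD, n = 3 each, adjusted p = 0.00577), a call not kept at library totals or in the TPM fits. The TPM ratio of Lpl to Lipc was 0.0447, 0.0416 and 0.0536 in the mutants and 0.180, 0.144 and 0.154 in the controls (exact permutation p = 0.1, two-sided, the smallest possible). Lpl (ENSMUSG00000015568.16) is on chromosome 8, bases 68880491 to 68907448.

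Vldlr, the receptor that takes up triglyceride-rich particles, had the second-largest log2 fold change and the widest spread. It was at 1.79, 4.69 and 0.923 CPM in mutant replicates 1 to 3 and at 16.5, 7.32 and 10.1 CPM in control replicates 1 to 3. The groups did not overlap, but the highest mutant library was 5.08 times the lowest one. The log2 fold change was -2.20 ± 0.54 (SE, adjusted p = 0.0328). With 1 mutant library removed, the adjusted p was 0.107 (replicate 1) or 0.0550 (replicate 3). With 1 control library removed it was 0.103 (replicate 1), 0.0513 (replicate 2) or 0.0697 (replicate 3), so the call was lost in these 5 cases. Without mutant replicate 2 the log2 fold change was -3.05 (adjusted p = 0.00845). In limma on log2(TPM + 1) it was -1.62, since adding 1 compresses values near 1 TPM, and it was -2.73 with 0.1 added. Vldlr (ENSMUSG00000024924.14) is on chromosome 19, bases 27216484 to 27254231.

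**Figure D2:**
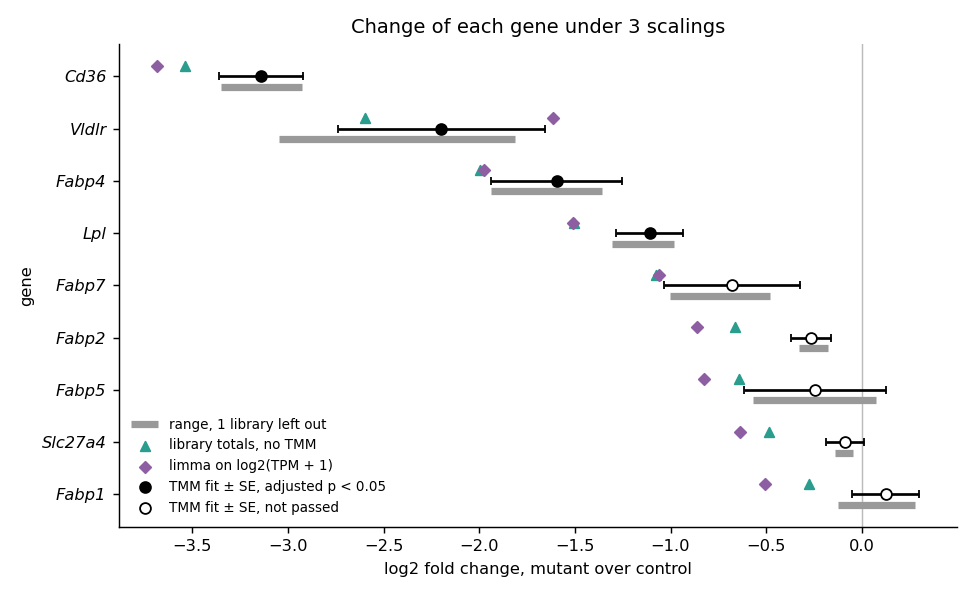
Log2 fold change of each gene, mutant over control, as circles with SE bars for the TMM-scaled edgeR fit (filled where the adjusted p was under 0.05). Triangles mark library totals, diamonds limma on log2(TPM + 1), and grey bars the range with 1 library left out; Cd36, Vldlr, Fabp4 and Lpl lie left of zero throughout, while Fabp1 crosses zero.

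Fabp1 supplied 98.4 ± 0.246% of the summed TPM of the 5 Fabp genes in the mutants and 97.9 ± 0.0560% in the controls (SD, n = 3 each). Its level was 2645, 3800 and 2253 CPM in mutant replicates 1 to 3 and 2652, 2634 and 2691 CPM in control replicates 1 to 3. The controls were nearly equal, with a coefficient of variation of 1.10%, whereas the mutants spread on both sides of them, with 27.7%. The log2 fold change was 0.12 ± 0.18 (SE) and did not pass (adjusted p = 0.698). Without mutant replicate 2 the direction turned, to -0.13. At library totals it was -0.27 and in limma on log2(TPM + 1) -0.51 (adjusted p = 0.0308, or 0.166 with no filter), close to the median gene of that fit at -0.48. Fabp1 (ENSMUSG00000054422.7) is on chromosome 6, bases 71199827 to 71205023.

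Fabp2 encodes the intestinal carrier, which was the second most abundant of the Fabp transcripts here. It was at 98.3, 101 and 82.2 CPM in mutant replicates 1 to 3 and at 110, 112 and 117 CPM in control replicates 1 to 3. The groups did not overlap, but the log2 fold change was small, -0.26 ± 0.10 (SE), and did not pass (adjusted p = 0.135). It was -0.66 at library totals (adjusted p = 0.00367) and -0.86 in limma on log2(TPM + 1) (adjusted p = 7.2e-04). The median gene moved by -0.40 in the former fit and by -0.48 in the latter. Markers of intestinal epithelium were at or near 0, and Alpi and Cdx2 had no count in any library. The 5 markers of this list summed to 0.0128 to 0.413 CPM in the mutants and 0.232 to 0.453 CPM in the controls. The TPM ratio of Fabp1 to Fabp2 was 63.6, 88.7 and 64.8 in the mutants and 57.1, 55.7 and 54.4 in the controls, higher in all 3 mutants (exact permutation p = 0.1, two-sided, the smallest possible). Fabp2 (ENSMUSG00000023057.5) lies on chromosome 3 from base 122895072 to 122899506 and overlaps an antisense gene, 4933405D12Rik, which reached at most 0.127 CPM in any library. Strand use in counting is not given in the sources used here.

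Fabp4 encodes the carrier of fat cells, macrophages and capillary endothelium. It was at 1.85, 4.02 and 2.65 CPM in mutant replicates 1 to 3 and at 11.1, 5.70 and 8.93 CPM in control replicates 1 to 3. No library of one group reached the other group's range, and the log2 fold change was -1.59 ± 0.34 (SE, adjusted p = 0.0205). The call was lost without mutant replicate 1 (adjusted p = 0.0628), mutant replicate 3 (0.0542), control replicate 1 (0.0713) and control replicate 3 (0.0592), and it was kept without mutant replicate 2 (0.0169) and control replicate 2 (0.0245). Fabp4 (ENSMUSG00000062515.3) is on chromosome 3, bases 10204088 to 10208576, in a cluster with Fabp5, Pmp2, Fabp9 and Fabp12.

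Fabp5, in the same cluster, had similar TPM to Fabp4 in controls but no call. It was at 7.14, 9.21 and 3.35 CPM in mutant replicates 1 to 3 and at 10.6, 7.20 and 5.54 CPM in control replicates 1 to 3. These ranges overlap widely, and the log2 fold change of -0.24 ± 0.37 (SE, adjusted p = 0.720) turned positive without mutant replicate 3 (0.072) or without control replicate 1 (0.05). Near-identical copies of Fabp5 could share its reads, and the copy Fabp5l2 is listed at 0 in all libraries. Fabp5 (ENSMUSG00000027533.10) spans bases 10012548 to 10016607 of chromosome 3. Fabp7, the brain-type carrier, was the lowest of the Fabp genes, with 1.41, 1.08 and 2.23 CPM in mutant replicates 1 to 3 and 2.96, 2.46 and 2.12 CPM in control replicates 1 to 3. Mutant replicate 3 reached the control range, and the log2 fold change of -0.68 ± 0.36 (SE) did not pass (adjusted p = 0.249). It was called lower at library totals, at -1.07 (adjusted p = 0.0474), and in limma on log2(TPM + 1), at -1.06 (adjusted p = 0.00595). In the former fit the median gene moved by -0.40 and in the latter by -0.48. Fabp7 (ENSMUSG00000019874.11) is on chromosome 10, bases 57784881 to 57788450.

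Several of the low members are known from cells other than hepatocytes, and some markers of such cells were called lower in the mutants. Calls and CPM sums in this paragraph follow TMM scaling, under which 6.82% of all tested genes were called lower and 6.64% higher. Of 8 markers of monocyte-derived macrophages 7 were called lower and 0 higher. Their summed level was 86.6 to 89.9 CPM in the mutants and 160 to 212 CPM in the controls. Of 7 markers of stellate cells and fibroblasts 6 were called lower, with sums of 118 to 155 CPM in mutants and 307 to 319 CPM in controls. Kupffer cell markers were called lower in 1 of 6 cases, with sums of 79.2 to 162 CPM in mutants and 180 to 250 CPM in controls. Endothelial markers were called lower in 2 of 8 cases, with sums of 105 to 152 CPM in mutants and 118 to 237 CPM in controls. Among adipocyte markers Lep had no count in any library, Adipoq none in the controls and Plin1 none in the mutants, while Cfd was called lower (0.125, 0.0638 and 0.134 CPM in the mutants, and 23.6, 9.51 and 9.96 CPM in the controls), Lipe did not pass, and the list summed to 16.5 to 22.4 CPM in mutants and 23.4 to 46.0 CPM in controls. Hepatocyte markers summed to 75406 to 83825 CPM in mutants and 70987 to 83049 CPM in controls, with 2 of 6 called higher and 0 lower. Of 5 bile duct markers 1 was called higher and 0 lower (sums of 10.7 to 14.2 CPM in mutants and 7.24 to 8.93 CPM in controls), and of 6 lymphocyte markers none was called (1.98 to 3.91 CPM in mutants and 3.52 to 4.46 CPM in controls). In RNA from whole liver, fewer cells of a type and less RNA per cell cannot be told apart. The part of these cells in the lower Lpl, Fabp4, Vldlr and Cd36 was not tested.

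The Kupffer cell sum was highest in mutant replicate 3 and lowest in mutant replicate 2 among the mutants, and Fabp7 had the same order. Clec4f, a receptor made by Kupffer cells, was chosen for mention after its values were seen. Of 12414 genes searched it had the profile nearest to Fabp7, at a distance of 0.0566 log2 units. Kcnk6 (0.0888) and Cep170 (0.0999), which are not among the Kupffer cell markers used here, came next. The log2 fold change of Clec4f was -0.65 ± 0.23 (SE, adjusted p = 0.106), so it did not pass, and neither did Fabp7. An order of so few libraries is easily shared, and the part of Kupffer cells in the Fabp7 values was not tested.

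**Figure D3:**
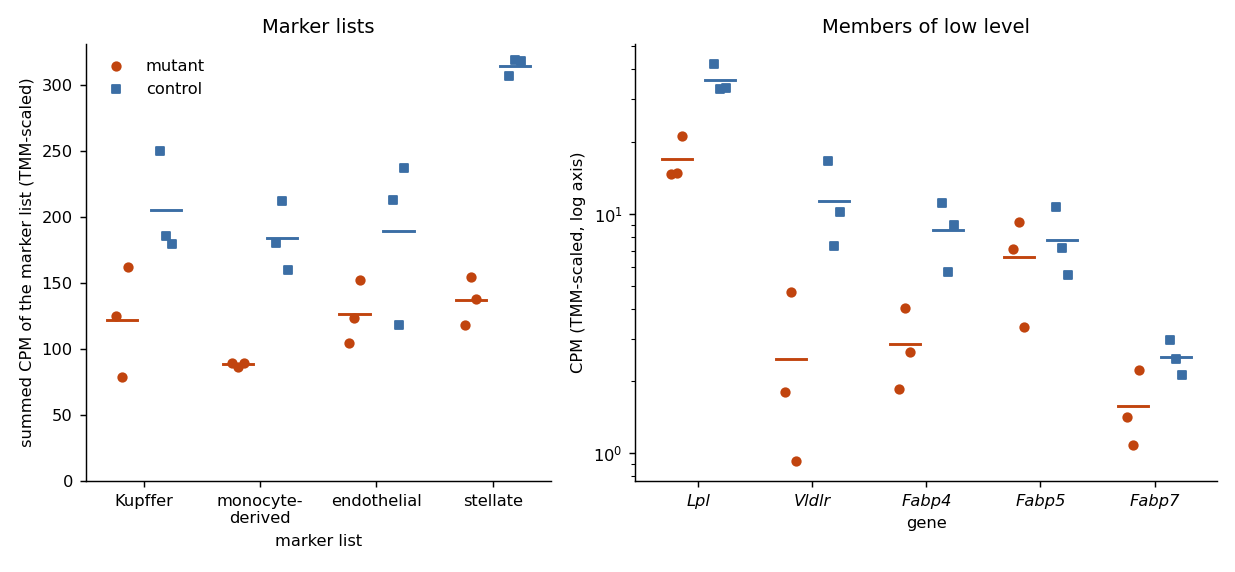
Left, summed TMM-scaled CPM of 4 lists of cell type markers per library; right, CPM of the 5 members of low level on a log axis, with mutants as circles left of controls as squares and lines for means. Kupffer, monocyte-derived macrophage and stellate sums of the mutants lie wholly below the controls, as do Lpl, Vldlr and Fabp4, whereas Fabp5 overlaps.

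Other genes of fatty acid handling were more often called higher than lower after TMM scaling. Of 53 tested genes in 6 lists, 15 were called higher and 5 lower, where 6.64% of all tested genes were called higher and 6.82% lower. These lists too were chosen with earlier results of these data known, so the shares are no test of them. The split of calls rests on the scaling. At library totals 3 of these genes were called higher and 18 lower, where 293 of all 14286 tested genes were called higher and 4508 lower. In limma on log2(TPM + 1) 1 was higher and 27 were lower, where 217 of all 11567 tested genes were higher and 7362 lower. Most calls over all genes were thus lower in these fits too. Leaving out 1 library also reduced the count of 20 calls, to 11 without mutant replicate 1 or without control replicate 1 and to 12 without control replicate 2 or without control replicate 3.

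Among transport proteins 4 of 8 tested genes were called higher and 1 lower, with a median log2 fold change of 0.47. Slc27a2 (FATP2), the leading fatty acid transport protein of hepatocytes, was at 2387, 2704 and 2271 CPM in mutant replicates 1 to 3 and 1771, 1782 and 1559 CPM in control replicates 1 to 3 (log2 fold change 0.53 ± 0.11, SE, adjusted p = 0.0166). Slc27a5 (FATP5), which also activates bile acids, was at 835 ± 98.4 CPM in mutants and 624 ± 19.1 CPM in controls (SD, n = 3 each, adjusted p = 0.0348). Both turned negative in limma on log2(TPM + 1), to -0.072 and -0.18. Neither FATP gene kept its call at library totals. The call of Slc27a2 was lost without mutant replicate 1 (adjusted p = 0.0502) and control replicate 3 (0.0560), and that of Slc27a5 without any single library except mutant replicate 1. Mfsd2a, a transporter of lysophospholipids, had a log2 fold change of 0.82 ± 0.13 (SE, adjusted p = 0.00574), kept at library totals (0.43) but not in the TPM fits. Got2, a mitochondrial transaminase also described as a fatty acid binding protein of the plasma membrane, was called higher (0.37, adjusted p = 0.0316) and turned at library totals (-0.030). Cavin1, a coat protein of caveolae, was the lower one (-0.87 ± 0.21, SE, adjusted p = 0.0327). Both calls held in few of the fits that left out 1 library, that of Got2 only without mutant replicate 2 and that of Cavin1 only without mutant replicate 2 or control replicate 3. The TPM of Slc27a4 as a percentage of that of Slc27a2 was 0.909, 0.759 and 0.950 in the mutants and 1.17, 1.34 and 1.48 in the controls, so FATP4 transcripts were a small fraction of FATP2 transcripts in every library.

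Among other lipid binding proteins 1 of 8 tested genes was called higher and 0 lower, with a median of 0.08. The called one was Rbp4, the plasma carrier of retinol, at 0.72 ± 0.11 (SE, adjusted p = 0.00543), which was not called in the TPM fits. Fabp6, Fabp9 and Pmp2, other genes of the fatty acid binding protein family, had no count in any library, and Fabp3 and Fabp12 stayed below the filter. Of 4 tested long-chain acyl-CoA synthetases, which activate fatty acids after entry, Acsl1 was called higher (0.52 ± 0.12, SE, adjusted p = 0.0241) and 3 did not pass. Acsl1 turned to -0.088 in limma on log2(TPM + 1), and its call was lost at library totals and without any single library except mutant replicate 1.

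The genes that act on LPL were divided. Of 13 tested genes 5 were called higher and 2 lower, with a median of 0.10. Angptl4, a secreted inhibitor of LPL, was at 174, 187 and 189 CPM in mutant replicates 1 to 3 and 88.4, 114 and 70.7 CPM in control replicates 1 to 3. Its log2 fold change was 1.01 ± 0.16 (SE, adjusted p = 0.00646), and it was still called at library totals, at 0.62, though not in limma without a filter (adjusted p = 0.0944). Apoc1, an apolipoprotein that inhibits LPL, was called higher as well (0.50, adjusted p = 0.0136), but not without control replicate 1 (0.0505) or at library totals, and it was at -0.095 in limma on log2(TPM + 1). Angptl8 and Apoc3 are named here after their values were seen. Angptl8, which encodes a secreted inhibitor of LPL, was called lower, at 9.78, 9.78 and 9.51 CPM in mutant replicates 1 to 3 and 11.8, 16.4 and 17.1 CPM in control replicates 1 to 3 (log2 fold change -0.64 ± 0.17, SE, adjusted p = 0.0400). With 1 library removed it stayed called only without control replicate 1, with adjusted p-values of 0.0864 to 0.128 in the other 5 fits, and the replicate block gave 0.0615. Apoc3, an apolipoprotein that hinders LPL, was called higher (0.52 ± 0.11, SE, adjusted p = 0.0169), but not at library totals or without mutant replicate 1 (0.0653), control replicate 1 (0.0596) or control replicate 3 (0.0538), and it was at -0.071 in limma on log2(TPM + 1). Inhibitors of LPL were thus called in both directions. Apoc2, the cofactor that LPL needs, fell by 0.67 ± 0.14 on the log2 scale (SE, adjusted p = 0.0174), a call lost without mutant replicate 1 (0.0668) or without control replicate 2 (0.0588). Apoa5, which supports LPL action in plasma, rose by a log2 fold change of 0.64 ± 0.09 (SE, adjusted p = 0.00317), and this was no longer called at library totals (0.0605) or in limma on log2(TPM + 1), at 0.044 (0.645). Gpihbp1, the capillary anchor of LPL, was at 6.73, 6.42 and 7.02 CPM in mutant replicates 1 to 3 and 9.97, 5.53 and 14.9 CPM in control replicates 1 to 3, and did not pass (adjusted p = 0.253). Its log2 fold change was -0.59 ± 0.32 (SE), and -0.20 without control replicate 3. It was called lower at library totals (-0.99, adjusted p = 0.0421) and in limma on log2(TPM + 1) (-1.02, adjusted p = 0.0221). The median gene moved by -0.40 in the former fit and by -0.48 in the latter. Lmf1, needed for LPL folding, did not pass either (adjusted p = 0.268). In limma on log2(TPM + 1) Lmf1 was called lower (-0.37, adjusted p = 0.0144), a smaller fall than that of the median gene.

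None of 8 tested lipoprotein receptors and their partners was called in edgeR's test, with a median of 0.03, and 3 had an unadjusted p under 0.05. DESeq2 called 1 of them, Sorl1, a sorting receptor named here after its values were seen. It was at 1.76, 1.03 and 3.07 CPM in mutant replicates 1 to 3 and 6.998, 2.99 and 4.17 CPM in control replicates 1 to 3. The groups overlapped, and its log2 fold change was -1.28 ± 0.45 (SE), with an adjusted p of 0.102 in edgeR and 0.0304 in DESeq2.

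Of 12 tested regulators 4 were called higher and 2 lower, with a median of 0.39. Pparg, the receptor that drives lipid storage genes including Cd36 and Fabp4 in fat cells, was at 7.93, 10.4 and 6.84 CPM in mutant replicates 1 to 3 and 19.4, 22.1 and 26.4 CPM in control replicates 1 to 3. It fell by 1.43 ± 0.19 on the log2 scale (SE, adjusted p = 0.00292) and was called in all the alternatives run. Ppara did not pass, at 0.26 ± 0.12 (SE, adjusted p = 0.195). In limma on log2(TPM + 1), where the median gene moved by -0.48, Ppara was called lower, at -0.33 (adjusted p = 0.0334). Nr1h3 and Rxrg are named after their values were seen. Nr1h3, which encodes LXRα, was called higher (0.37 ± 0.09, SE, adjusted p = 0.0347). Its call was lost in each of the 6 fits without 1 library (0.0617 to 0.123) and under the replicate block (0.0579). Nr1h3 was at -0.028 at library totals and was called lower in limma on log2(TPM + 1), at -0.22 (adjusted p = 0.0388). That was a smaller fall than the one of the median gene in the same fit. Rxrg, which encodes RXRγ, was called lower, at 3.73, 4.56 and 2.98 CPM in mutant replicates 1 to 3 and 6.07, 7.51 and 7.84 CPM in control replicates 1 to 3 (-0.93 ± 0.22, SE, adjusted p = 0.0314). With 1 library removed its call was kept only without mutant replicate 2, with adjusted p-values of 0.0538 to 0.0947 otherwise, and the replicate block gave 0.0516. Hnf4a, a hepatocyte factor that also binds such direct repeats, had a log2 fold change of 0.67 ± 0.10 (SE, adjusted p = 0.00597), Nr1i2 (PXR) one of 0.71 ± 0.12 (SE, adjusted p = 0.00730) and Foxa2 one of 0.62 ± 0.12 (SE, adjusted p = 0.0128). These 3 calls were not kept at library totals or in the TPM fits, and that of Foxa2 was also lost without mutant replicate 1 (0.0548) or without control replicate 1 (0.0552). The part of any of these regulators in the lower Cd36 or Fabp4 was not tested.

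**Figure D4:**
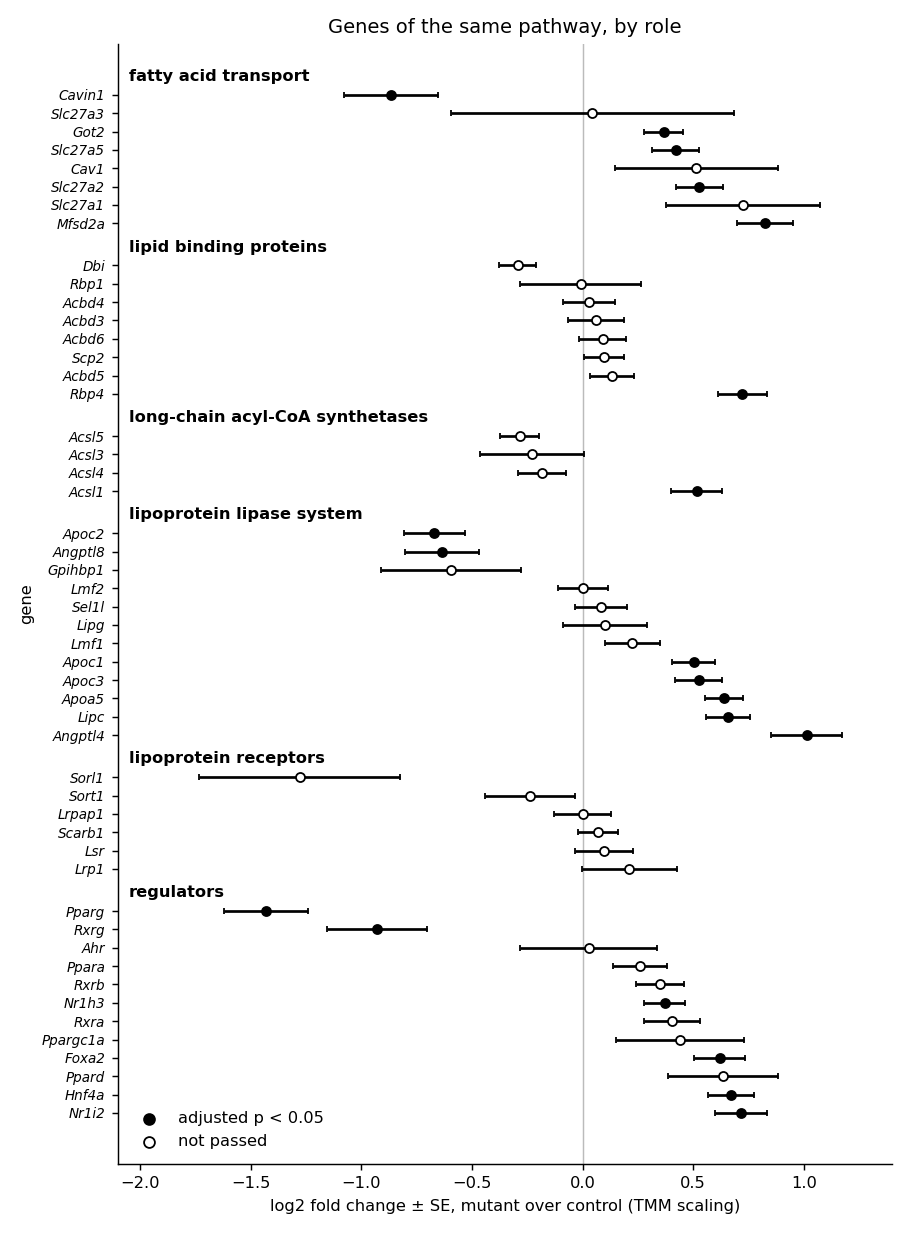
Log2 fold change, mutant over control, with SE bars for 50 of the 53 tested genes of fatty acid handling grouped by role, filled where the adjusted p was under 0.05 after TMM scaling. Calls to the right outnumber calls to the left, 15 against 5, a split that turned to 3 against 18 at library totals. In that fit 293 of all 14286 tested genes were called higher and 4508 lower.

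Genes whose profile over the 6 libraries was most like that of a called member were found among 12414 tested genes by the root-mean-square distance of centred log2 CPM, a description in which the group difference dominates. Nearest to Cd36 were Cyp3a11, a drug-metabolizing cytochrome P450 (0.272 log2 units), Postn, the matrix protein periostin (0.283), and the cytochrome P450 gene Cyp2a22 (0.319). Cyp3a11 was at 111 ± 61.6 CPM in mutants and 934 ± 113 CPM in controls (SD, n = 3 each). Nearest to Lpl were Msn, which encodes the membrane linker moesin (0.0550), Cdr2l (0.0714), which itself did not pass (adjusted p = 0.0761), and the receptor kinase gene Axl (0.104). For Vldlr the nearest genes were farther away, with Dsg1c at 0.448, Sparcl1 at 0.470 and S100a8 at 0.481. Arhgef2, Pnldc1 and Adra2b were nearest to Fabp4, at 0.174, 0.202 and 0.222.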

How the data were processed

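The authors deposited a table of estimated counts, not whole numbers, and a table of TPM (55487 genes, 6 columns), whose columns were matched by library title. Cutadapt, STAR and build mm10 are named per the submitters' processing notes, and per the labels' protocols poly(A) libraries were read as pairs of 150 bases. The counting program, its annotation and its use of strand were not stated in the sources used here. Estimated counts were rounded and tested in edgeR 4.0.16 under R 4.3.3 (filterByExpr, TMM, quasi-likelihood F-test on group, Benjamini-Hochberg adjustment over 14286 genes). The SE of an edgeR log2 fold change was derived from the test, as its absolute value divided by the square root of the F statistic. The deposited TPM entered limma 3.58.1 as log2(TPM + 1) or log2(TPM + 0.1), with at least 1 TPM in 3 libraries or no filter. Other alternatives were RLE factors, library totals, scaling without major urinary protein genes, other count filters, DESeq2 1.42.0, robust fitting, a replicate block and each library left out. Library totals (35847386 to 43162557 estimated counts) limit the precision of genes near 1 CPM. Replicate numbers gave no clear sign of paired libraries. No libraries were duplicates, with a chi-square per gene of at least 47.7. Coordinates are from GENCODE release M21, in which 99.4% of gene identifiers were found. All 9 members are named. Related genes are named where called, with at most 4 per list, or where their role bears on a member. Some related genes are not reported here. Nearest genes need a group mean of 1 CPM. The members and lists were chosen with earlier results of these data known.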

Additional observations from a re-analysis of the deposited data

How the results depend on the processing

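The scaling had the largest effect. With library totals 4801 of 14286 tested genes and 7 of the 9 members were called, all 7 lower. After TMM scaling 1923 of 14286 genes and 4 members were called. The share of calls that were higher was 6.10% at library totals against 49.35%. In limma 7579 of 11567 tested genes and 8 members were called with log2(TPM + 1), and 7526 of 11567 and 8 with log2(TPM + 0.1). With no filter 6581 of 22796 genes and 7 members were called. Directions turned at library totals for Fabp1 (-0.27), Got2 (-0.030), Nr1h3 (-0.028), Lmf1 (-0.17) and Ppara (-0.14). They turned in the limma fits, at either pseudocount and with no filter, for Fabp1 (-0.51), Slc27a2 (-0.072), Slc27a5 (-0.18), Got2 (-0.23), Acsl1 (-0.088), Lmf1 (-0.37, and -0.38 with 0.1 added), Apoc1 (-0.095), Apoc3 (-0.071), Nr1h3 (-0.22, and -0.23 with 0.1 added), Ppara (-0.33) and Rxra (-0.20). Median log2 fold changes of all genes there were -0.40 at library totals and -0.24 to -0.55 in limma. Leaving out 1 library gave 882 to 1514 called genes of 14631 to 14875 tested, 2 to 4 members and 11 to 17 related genes. The gene count was lowest without replicate 1 of the mutants (882) and then without control replicate 1 (886), 2 (956) or 3 (1018). Over these fits Fabp1 ranged from -0.13 to 0.28 and Fabp5 from -0.57 to 0.072. Cd36 and Lpl were called lower in all 17 alternatives. Same-numbered libraries deviated together with r = 0.0167, -0.00322 and 0.0634, and only replicate 3 of the mutants correlated best with its own number. These values gave no clear sign of pairing by number, but correlations over all tested genes cannot exclude it. With the replicate block 1558 of 14286 tested genes, 3 members and 15 related genes were called. Among the named genes, calls were lost for Fabp4 (adjusted p = 0.0516), Slc27a5 (0.0600), Got2 (0.0600), Angptl8 (0.0615), Nr1h3 (0.0579) and Rxrg (0.0516). The cause of these differences was not tested. Vldlr rested on 29 to 151 counts in the mutants and 326 to 758 in the controls, Fabp4 on 71 to 130 and 254 to 509, and Fabp7 on 35 to 69 and 94 to 136.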

Other observations

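The transcripts of the 9 genes together made up 9183, 12041 and 7664 TPM in mutant replicates 1 to 3 and 13583, 13496 and 14061 TPM in control replicates 1 to 3, nearly all of it Fabp1. In TMM-scaled CPM the same 9 genes summed to 2446 to 4021 in the mutants and 3156 to 3267 in the controls, so the groups overlapped. Mean TPM was lower in the mutants for 91.6% of tested genes, which bears on every TPM sum of this paragraph. Without Fabp1 the other 8 summed to 183, 186 and 162 TPM in the mutants and 500, 492 and 545 TPM in the controls. Within a library the TPM of Cd36 as a percentage of that of Fabp1 was 0.115, 0.149 and 0.210 in the mutants and 1.35, 1.46 and 1.64 in the controls, 9.38-fold lower in the mutants by means. Fabp4 per Fabp5, neighbours in one gene cluster, was 0.313, 0.528 and 0.957 in the mutants and 1.26, 0.956 and 1.95 in the controls. The groups touch here, at mutant replicate 3 and control replicate 2 (exact permutation p = 0.2, two-sided). Fabp4, Fabp5 and Fabp7 summed to 15.7, 19.8 and 13.03 TPM in the mutants and 56.5, 35.1 and 39.4 TPM in the controls.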
